A study of Mus musculus with 16 samples.

Results

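The genes described here are 30 regulators of the number, shape and removal of mitochondria, taken from a fixed list of symbols and followed across gonadal and subcutaneous fat. They are 30 of the 30325 genes in the gonadal table and of the 30946 in the subcutaneous table, and all 30 passed the filter on low values in both. By role, 6 genes regulate mitochondrial biogenesis, 8 copy, transcribe or protect mitochondrial DNA, 3 fuse mitochondria, 5 divide them, 5 act in quality control of the inner membrane and matrix, and 3 mark mitochondria for removal.

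All 16 samples came from female mice on a C57BL/6J background that lack Lcn2 (B6.129P2-Lcn2tm1Aade/AkiJ). Lipocalin-2 is a secreted protein that binds the siderophores with which bacteria take up iron. When 8 weeks old, the mice were given, by vein, an AAV8 vector that encodes either LCN2 or green fluorescent protein (GFP). An adiponectin promoter, which is active in fat cells, drives both constructs, and a target sequence of microRNA122 lowers expression in liver. All mice ate an HF/HS diet until fat was taken at 16 weeks. There were 4 samples per vector in each depot, and every mouse, GFP controls included, carried the null allele, a vector and the diet. The tissue was whole fat, in which fewer cells of a type and less RNA per cell cannot be told apart.

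Fat cells hold few mitochondria when they are white and many when they are brown or beige. Coactivators of the PGC-1 family bind the factors NRF1, GABPA and ERRα on nuclear genes, and the products of these genes, TFAM and the mitochondrial polymerases among them, maintain and read the mitochondrial genome. Fusion and fission set the length of the mitochondrial network, and the kinase PINK1 and receptors in the outer membrane direct damaged mitochondria to the autophagosome. The comparison of vectors asks what LCN2 made in fat cells does to the expression of these genes in each depot.

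Promoters of the set were examined because 3 of its members (Nrf1, Gabpa and Esrra) encode factors that are known to bind DNA upstream of mitochondrial genes. Promoter sequences from RefSeq (GRCm38.p6) were matched for 28 of the 30 genes, and those of Ppargc1b and Bnip3l were not used here. The 250 bases before each start were searched on both strands for an NRF1 motif (GCGCATGCG), a GABPA motif (CCGGAAGT) and an ERRα motif (AAGGTCA). The GABPA motif was present before 8 of the 28 genes (28.6%), namely Fis1, Mfn1, Mief1, Phb2, Polg, Sirt3, Tfam and Twnk, and before 3.23% of all 27025 genes in the table. The NRF1 motif was present before 1 of 28 (3.57%, against 1.64% of all genes), and this was Opa1. The ERRα motif was present before 1 of 28 (3.57%, against 4.70%), and this was Twnk. A match is a string of letters, and binding was not measured.

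Read 5′ to 3′ on the strand of the gene, the sequences are those of Opa1 (chr16:29579084-29579333, plus strand), of Mfn1 (chr3:32529232-32529481, plus strand) and of Fis1 (chr5:136953025-136953274, plus strand), which each hold a motif and stand for fusion and fission, and of Esrra (chr19:6921809-6922058, minus strand), the member with the smallest p in subcutaneous fat. Capitals mark the motif, of NRF1 in Opa1 and of GABPA in Mfn1 and Fis1. In Opa1 the motif is found at 2 overlapping places, one on each strand, and the capitals run over both. The Esrra window held none of the 3 motifs and has no capitals.
Opa1: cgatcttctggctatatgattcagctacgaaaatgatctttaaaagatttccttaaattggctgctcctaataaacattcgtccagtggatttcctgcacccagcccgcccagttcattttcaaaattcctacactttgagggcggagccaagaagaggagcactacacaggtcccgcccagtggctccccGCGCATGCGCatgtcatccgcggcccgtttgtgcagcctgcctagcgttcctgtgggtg
Mfn1: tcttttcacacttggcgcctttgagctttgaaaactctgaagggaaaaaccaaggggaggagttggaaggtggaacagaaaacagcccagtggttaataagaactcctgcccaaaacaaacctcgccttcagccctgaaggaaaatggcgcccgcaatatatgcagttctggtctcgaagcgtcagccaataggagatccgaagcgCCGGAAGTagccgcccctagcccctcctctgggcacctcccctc
Fis1: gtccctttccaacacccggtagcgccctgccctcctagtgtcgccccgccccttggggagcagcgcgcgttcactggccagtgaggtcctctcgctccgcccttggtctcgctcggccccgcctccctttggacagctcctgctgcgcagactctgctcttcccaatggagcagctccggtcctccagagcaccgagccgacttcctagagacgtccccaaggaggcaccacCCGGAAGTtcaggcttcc
Esrra: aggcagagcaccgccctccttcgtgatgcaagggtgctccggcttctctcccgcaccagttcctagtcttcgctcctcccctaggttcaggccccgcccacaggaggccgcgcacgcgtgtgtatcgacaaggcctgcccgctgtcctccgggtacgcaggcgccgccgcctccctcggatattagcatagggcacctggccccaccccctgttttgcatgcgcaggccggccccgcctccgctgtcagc

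Gonadal values are read counts that the authors divided by a size factor per sample (normalized counts), from libraries of 35173260 to 42890102 reads. Subcutaneous values are rlog values, a log2 scale of unknown depth that draws low genes towards their mean. Differences are LCN2 minus GFP on a log2 scale, of the normalized count plus 1 or of rlog, tested with limma and adjusted by Benjamini-Hochberg over all genes tested. The delivered gene, Lcn2, separated the vectors without overlap, with LCN2 samples higher by 1.93 ± 0.37 (SE, n = 4 per group) in gonadal and 0.95 ± 0.29 in subcutaneous fat (exact permutation p = 0.0286 in each, two-sided, the smallest that 4 against 4 allow). By limma over all genes, the test applied to the set, Lcn2 did not pass in either depot (adjusted p = 0.108 for gonadal fat, 0.315 for subcutaneous fat). Adipocyte markers such as Adipoq and Fabp4 were abundant in every sample of both depots. Some libraries stood apart in transcripts of other tissues. The summed level of 13 skeletal muscle genes was 65359 normalized counts in LCN2 replicate 4 of gonadal fat, and no other gonadal sample exceeded 7043. The sum of 14 lymph node genes, on the scale of 2 to the power of rlog, was 16608 and 10119 in subcutaneous GFP replicates 1 and 2 and at most 3864 in the other 6.

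The genes differed widely in level per length in gonadal fat. Pink1, the kinase that accumulates on damaged mitochondria, had the highest mean, 2881 normalized counts per kb of exon over the 8 samples. It was followed by Mfn2, a fusion GTPase of the outer membrane, at 1797 per kb, by Bnip3l, a mitophagy receptor, at 1573 per kb, and by Fis1, an adaptor of fission, at 1123 per kb. At the low end were Polg2, the accessory subunit of the mitochondrial DNA polymerase, at 38.9 per kb, Nrf1, at 46.3 per kb, and Tfb1m, at 49.4 per kb. The fewest recovered reads of a member in any library were 129, of Polg2.

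**Figure D1:**
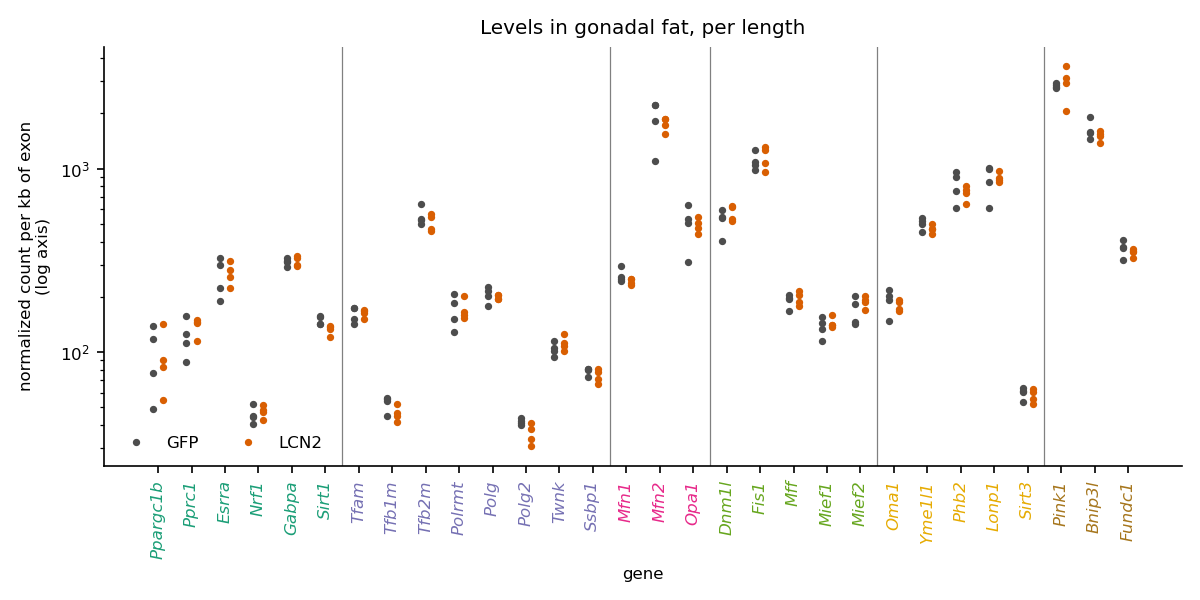
Normalized count per kb of exon (log axis) of the 30 genes in the 8 gonadal samples, one point per sample, with gene names coloured and set apart by role in the order biogenesis, mtDNA, fusion, fission, quality control and mitophagy. Pink1 lies highest, with a mean of 2881 per kb, Polg2 lowest, with 38.9 per kb, and GFP and LCN2 samples lie close together within nearly every gene.

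No gene of the set passed the test of LCN2 against GFP in either depot. In gonadal fat 0 of 30 passed limma at an adjusted p of 0.05, where 0.102% of the 19536 genes tested passed, and the smallest adjusted p was 0.360. None reached an unadjusted p of 0.05, against 14.8% of all genes, and on recovered reads edgeR and DESeq2 also called 0 of 30, where they called 0.0358% and 4.19% of all genes. Without LCN2 replicate 1 a single member, Polg2, reached an unadjusted p of 0.05, where 2864 of the 19536 genes did. In subcutaneous fat 0 of 30 passed, where 0% of the 20302 genes tested passed, and the smallest adjusted p was 0.315. There 2 of 30 (Esrra and Ppargc1b, both lower) had an unadjusted p under 0.05, against 14.0% of all genes, or 6.31% counting lower genes alone. That number was 5 without GFP replicate 3, 4 without GFP replicate 4 and 5 with no filter on low values, with 0 called each time. Over all genes it was then 3869 of 20302, 3783 of 20302 and 3560 of 30946, in the same order.

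The intervals give a range for each difference, gene by gene, from the spread of these samples, which may be technical only. In gonadal fat the 95% intervals of the 30 differences lay between -0.85 and 0.81, so none reached a 2-fold change in either direction. Their median half-width was 0.26, against 0.37 over all genes tested. In subcutaneous fat they lay between -0.73 and 0.44 on the rlog scale, with a median half-width of 0.14 against 0.19. Single genes differed in precision. Gabpa, the DNA-binding subunit of GABP, had the narrowest gonadal interval, -0.16 to 0.18, and Ppargc1b the widest.

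**Figure D2:**
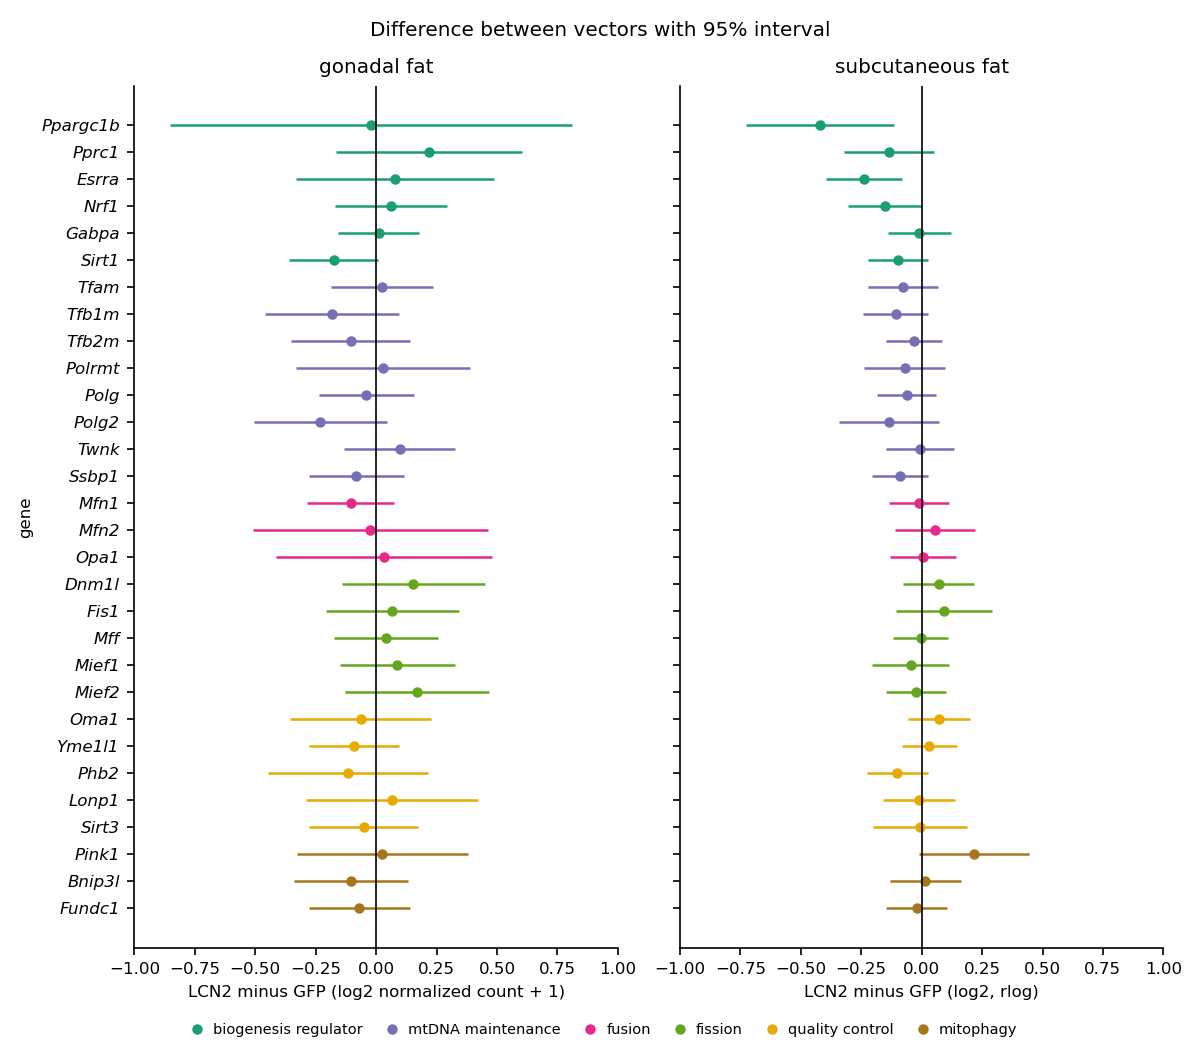
LCN2 minus GFP difference of each of the 30 genes on a log2 scale (points) with its 95% interval from limma (lines), in gonadal fat on the left and subcutaneous fat on the right, 4 samples per group, coloured by role. All gonadal intervals include 0, and in subcutaneous fat those of Ppargc1b and Esrra lie below 0.

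Direction within the set was even in gonadal fat and leaned lower in subcutaneous fat. In gonadal fat 15 of 30 differences were below 0, with a median of -0.0048, against 48.0% and a median of 0.01 over all genes. In subcutaneous fat 22 of 30 (73.3%) were below 0, against 50.2% of all genes, with a median of -0.02. The count below 0 depended on scaling. It was 14 of 30 once each sample was centred on its median over all genes, an upward shift of 0.02. The median of the set was then 0.0025 against 0.025 over all genes, and before centring -0.023 against -0.00078. The set thus lay below the median of all genes with either scaling. Of the 14 genes of biogenesis and mitochondrial DNA, 14 were below 0 (median -0.09), or 12 after centring (median -0.07), while 4 of 8 fusion and fission genes were below 0, or 1 of 8 after centring and 2 of 8 without GFP replicate 3 or without LCN2 replicate 1.

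Among the regulators of biogenesis, Ppargc1b encodes PGC-1β, a coactivator that drives oxidative genes in fat and muscle (ENSMUSG00000033871, chromosome 18, 61298136 to 61400431, minus strand, GRCm38). In subcutaneous fat its rlog values were 8.87, 8.41, 8.37 and 8.42 in GFP replicates 1 to 4 and 7.92, 8.08, 8.35 and 8.05 in LCN2 replicates 1 to 4. All 4 LCN2 samples lay below all GFP samples, though LCN2 replicate 3 and GFP replicate 3 lay next to each other, and GFP replicate 1 stood above the rest. The difference was -0.42 ± 0.13 (SE, n = 4 per group; limma, unadjusted p = 0.0129, adjusted p = 0.315). Without GFP replicate 1 it was -0.31 ± 0.10.

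Ppargc1b showed no such order in gonadal fat. Its normalized counts there were 305, 469, 557 and 196 with GFP and 362, 329, 566 and 219 with LCN2. Both groups spread over the same wide range, and the within-group SD of 0.62 on the log2 scale was the largest of the set. The difference was -0.02 ± 0.37 (adjusted p = 0.988 by limma), with a 95% interval that ran from 0.554-fold to 1.75-fold.

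Esrra encodes the orphan nuclear receptor ERRα, a partner of the PGC-1 coactivators (ENSMUSG00000024955, chromosome 19, 6910977 to 6921813, minus strand, GRCm38). Its subcutaneous rlog values were 10.26, 10.25, 10.21 and 10.12 with GFP and 9.83, 9.93, 10.07 and 10.06 with LCN2. The groups did not overlap here either, and the gap between the lowest GFP and the highest LCN2 sample was narrow. The difference was -0.24 ± 0.07 (limma, unadjusted p = 0.00792, adjusted p = 0.315), the smallest p of the set. Without GFP replicates 1 and 2, the libraries with lymph node transcripts, it was -0.19 ± 0.09 (unadjusted p = 0.0679), and Ppargc1b was -0.30 ± 0.12 (unadjusted p = 0.0430). In gonadal fat Esrra had normalized counts of 979, 1301, 1427 and 834 with GFP and 1128, 983, 1380 and 1230 with LCN2, which overlapped throughout, with a difference of 0.08 ± 0.18.

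Markers of other cells differed between the same subcutaneous samples. The summed level of 8 brown adipocyte genes, among them Ucp1, Cidea and Elovl3, on the scale of 2 to the power of rlog was 9276, 2335, 2187 and 5008 in GFP replicates 1 to 4 and 1843 to 2440 in LCN2 samples. GFP replicate 1 was thus highest in brown adipocyte genes, in lymph node genes and in Ppargc1b. Of the 8 brown adipocyte genes 7 had a difference below 0, with a median of -0.63, the exception being Prdm16. By limma 4 of the 8 were lower and 0 higher at an unadjusted p under 0.05, against 6.31% of all genes for lower. As for every gene tested in this depot, 0 were called. The 14 lymph node genes all had a difference below 0, with 0 called. With the mean lymph node marker level as a covariate, Esrra was -0.19 ± 0.07 (limma, unadjusted p = 0.0296) and Ppargc1b -0.33 ± 0.14 (unadjusted p = 0.0460), both with an adjusted p of 0.681. The part of brown adipocyte genes in these values was not tested.

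Sirt1, the deacetylase that acts on PGC-1α, had the smallest p of the set in gonadal fat (ENSMUSG00000020063, chromosome 10, 63319005 to 63381704, minus strand, GRCm38). Normalized counts were 754, 842, 763 and 828 with GFP and 743, 731, 642 and 708 with LCN2. The groups did not overlap, which held for 1 of 30 genes of the set on the lower side, against 4.71% of all genes. The gap was small, 754 against 743, and the difference was -0.17 ± 0.08 (limma, unadjusted p = 0.0601, adjusted p = 0.360). In subcutaneous fat its rlog values were 9.81, 9.81, 9.68 and 9.81 with GFP and 9.71, 9.64, 9.63 and 9.74 with LCN2, a difference of -0.10 ± 0.05 (adjusted p = 0.442), with overlap through GFP replicate 3.

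The other 3 regulators were Pprc1, another coactivator of the PGC-1 family, Nrf1 and Gabpa. Their gonadal differences ran from 0.01 (Gabpa) to 0.22 (Pprc1) and the subcutaneous ones from -0.15 (Nrf1) to -0.01 (Gabpa). All 6 regulators were below 0 in subcutaneous fat, or 5 of 6 after centring, and 2 of 6 in gonadal fat. Gabpa shares 6.98% of its exonic bases with Atp5j on the opposite strand, and whether counting used the strand is not given in the sources used here.

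**Figure D3:**
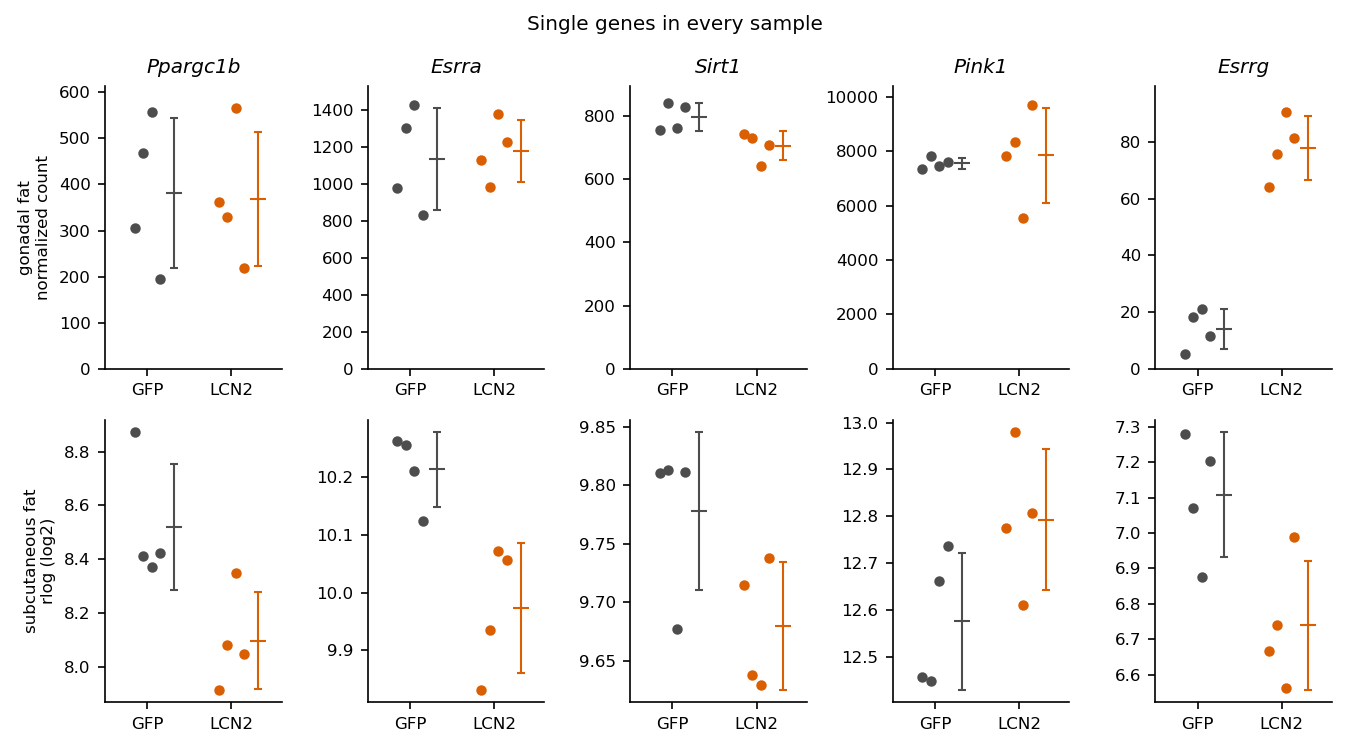
Ppargc1b, Esrra, Sirt1, Pink1 and Esrrg in every sample, as normalized counts in gonadal fat (top, axes from 0) and rlog values in subcutaneous fat (bottom, axes not from 0), with one point per sample in replicate order and the mean ± SD (n = 4) beside each group. Groups do not overlap for Ppargc1b and Esrra in subcutaneous fat and for Sirt1 and Esrrg in gonadal fat.

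Of the 8 genes that keep and read mitochondrial DNA, 5 were below 0 in gonadal fat (median -0.06) and 8 in subcutaneous fat (median -0.07), or 7 there after centring, and none was called. The lowest gonadal difference of the whole set was that of Polg2. Tfb1m encodes a methyltransferase of the mitochondrial ribosomal RNA and Polg2 the accessory subunit that makes the DNA polymerase processive. Gonadal normalized counts of Polg2 were 191, 184, 175 and 180 with GFP and 180, 133, 146 and 166 with LCN2. LCN2 replicate 1 reached into the range of the GFP samples and LCN2 replicate 2 was lowest. The difference was -0.23 ± 0.12 (limma, unadjusted p = 0.0911, adjusted p = 0.424). In subcutaneous fat Polg2 had rlog values of 7.86, 7.72, 7.55 and 7.89 with GFP and 7.75, 7.59, 7.50 and 7.63 with LCN2, which overlapped, a difference of -0.13 ± 0.09.

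Tfb1m had gonadal normalized counts of 203, 201, 194 and 162 with GFP and 188, 161, 168 and 150 with LCN2. GFP replicate 4 fell among the LCN2 samples, and the difference was -0.18 ± 0.12. Its subcutaneous rlog values were 7.31, 7.19, 7.38 and 7.35 with GFP and 7.13, 7.25, 7.21 and 7.20 with LCN2, a difference of -0.11 ± 0.06 (unadjusted p = 0.103, adjusted p = 0.433 by limma). GFP replicate 2 lay within the LCN2 range. Without it the difference was -0.15 ± 0.06 (unadjusted p = 0.0337), without GFP replicates 1 and 2 it was -0.17 ± 0.06 (unadjusted p = 0.0357), and with the lymph node covariate it was -0.15 ± 0.06 (unadjusted p = 0.0460), with adjusted p-values by limma from 0.675 to 0.908.

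The other 6 were the packaging factor Tfam, the transcription factor Tfb2m, the RNA polymerase Polrmt, the catalytic DNA polymerase Polg, the helicase Twnk and the single-strand binding protein Ssbp1. Their gonadal differences ran from -0.11 (Tfb2m) to 0.10 (Twnk), and the subcutaneous ones from -0.09 (Ssbp1) to -0.01 (Twnk). Ssbp1 was, with Ppargc1b and Esrra, one of 3 of 30 genes whose LCN2 samples all lay below the GFP samples in subcutaneous fat, against 3.27% of all genes, and its highest LCN2 sample, at 9.31, lay next to 3 GFP samples at 9.32. Twnk shares 12.6% of its exonic bases with Mrpl43 and Polg shares 8.57% with Fanci, each on the opposite strand. The 8 genes with the GABPA motif before their starts had subcutaneous differences from -0.10 (Phb2) to 0.09 (Fis1), with Tfam at -0.08 and Polg at -0.06. Esrra, without the motif, had -0.24. A link between motif and difference was not tested.

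The 13 messenger RNAs of the mitochondrial genome, which these proteins transcribe, were followed beside the set. In gonadal fat 9 of 13 had a difference below 0 (median -0.04), but 13 of 13 were when GFP replicate 4 was left out and 1 of 13 when LCN2 replicate 4 was, or 0 when GFP replicate 2 was left out with the latter. It was 3 to 6 without GFP replicate 1, 2 or 3 or LCN2 replicate 2. In subcutaneous fat 12 of 13 were below 0 (median -0.14), or 11 after centring (median -0.11). There the median was -0.060 without GFP replicate 1, -0.070 without LCN2 replicate 4, -0.034 without GFP replicates 1 and 2 and -0.088 with the lymph node covariate. None of the 13 was called in either depot. Gonadal sums of these RNAs were lowest in GFP replicate 4.

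Fusion joins the outer membranes through the mitofusins Mfn1 and Mfn2 and the inner membranes through Opa1. Mfn1 had gonadal normalized counts of 1524, 1801, 1576 and 1497 with GFP and 1528, 1421, 1455 and 1529 with LCN2. GFP replicate 2 stood above the other 7, which overlapped, and the difference was -0.11 ± 0.08 (limma, adjusted p = 0.595). In subcutaneous fat its rlog values were 10.37, 10.41, 10.55 and 10.47 with GFP and 10.44, 10.48, 10.43 and 10.40 with LCN2, a difference of -0.01 ± 0.05, or 0.01 after centring.

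Mfn2 had gonadal normalized counts of 9477, 11491, 11594 and 5724 with GFP and 9009, 8044, 9650 and 9679 with LCN2. GFP replicate 4 lay far below the other 7, GFP replicates 2 and 3 lay highest, and the LCN2 samples lay between. The difference was -0.02 ± 0.21 with all samples and -0.25 ± 0.11 without GFP replicate 4 (limma, unadjusted p = 0.0482, adjusted p = 0.251). In subcutaneous fat the rlog values of Mfn2 were 12.83, 12.84, 13.02 and 12.77 with GFP and 12.81, 12.92, 13.02 and 12.94 with LCN2, overlapping, a difference of 0.06 ± 0.07. Opa1, with the NRF1 motif in its promoter, differed by 0.03 in gonadal fat and by 0.01 in the subcutaneous depot. Its gonadal counts were lowest in GFP replicate 4 as well, 2448 against 3488 to 4990 in the other 7.

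Fission is carried out by the dynamin Dnm1l, which the adaptors Fis1, Mff, Mief1 and Mief2 bring to the outer membrane. All 5 had a gonadal difference above 0, from 0.04 (Mff) to 0.17 (Mief2), and 4 of 5 without GFP replicate 4 or without LCN2 replicate 4. None was called, and none reached an unadjusted p of 0.05. In subcutaneous fat 3 of 5 were below 0, or 1 of 5 after centring, from -0.04 (Mief1) to 0.09 (Fis1).

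Dnm1l had gonadal normalized counts of 2849, 2790, 3092 and 2103 with GFP and 2688, 2775, 3235 and 3271 with LCN2. LCN2 replicates 3 and 4 were highest and GFP replicate 4 lowest, with a difference of 0.15 ± 0.13 (limma, adjusted p = 0.645), which was 0.036 ± 0.095 without GFP replicate 4. Its subcutaneous rlog values were 11.31, 11.25, 11.30 and 11.15 with GFP and 11.20, 11.32, 11.42 and 11.36 with LCN2, where 3 of 4 LCN2 samples lay above every GFP sample and LCN2 replicate 1 did not. The difference was 0.07 ± 0.06.

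Mief2 had gonadal normalized counts of 395, 499.5, 550.4 and 385 with GFP and 522, 463, 507 and 549 with LCN2. GFP replicates 1 and 4 lay below all LCN2 samples, GFP replicate 2 lay among them and GFP replicate 3 just above them. The difference was 0.17 ± 0.13, or 0.094 without GFP replicate 4. In subcutaneous fat its rlog values were 8.75, 8.69, 8.71 and 8.74 with GFP and 8.59, 8.79, 8.70 and 8.72 with LCN2, a difference of -0.02 ± 0.05, or 0.00 after centring. The LCN2 samples spread around the GFP samples on both sides.

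Quality control inside mitochondria rests on the inner membrane proteases Oma1 and Yme1l1, which cut OPA1, on the scaffold prohibitin 2 (Phb2), on the matrix protease Lonp1 and on the deacetylase Sirt3. Yme1l1 had gonadal normalized counts of 3988, 4322, 4172 and 3617 with GFP and 3769, 3548, 3757 and 4006 with LCN2, overlapping, a difference of -0.09 ± 0.08 (limma, adjusted p = 0.659). Its subcutaneous rlog values were 11.65, 11.58, 11.67 and 11.61 with GFP and 11.66, 11.60, 11.73 and 11.65 with LCN2, a difference of 0.03 ± 0.05. Yme1l1 had the smallest within-group SD of the set in that depot, 0.05.

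Phb2 had subcutaneous rlog values of 11.39, 11.42, 11.45 and 11.30 with GFP and 11.26, 11.22, 11.36 and 11.32 with LCN2. GFP replicate 4 lay among the LCN2 samples, and the difference was -0.10 ± 0.06 (limma, unadjusted p = 0.104, adjusted p = 0.436). In gonadal fat its normalized counts were 2818, 3546, 3342 and 2258 with GFP and 2828, 2372, 2985 and 2737 with LCN2, with GFP samples at both ends of the range and a difference of -0.11 ± 0.15. That was -0.24 without GFP replicate 4 and -0.026 without GFP replicate 2. The differences of Oma1, Lonp1 and Sirt3 ran from -0.06 (Oma1) to 0.07 (Lonp1) in gonadal fat and from -0.01 (Lonp1) to 0.07 (Oma1) in subcutaneous fat. Sirt3 shares exonic bases with Ric8a and, for 5.73% of its own, with Psmd13, both on the opposite strand.

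In mitophagy, Pink1 encodes a kinase that marks damaged mitochondria, and Bnip3l and Fundc1 encode receptors that bind autophagosomes directly. Pink1 had subcutaneous rlog values of 12.46, 12.45, 12.66 and 12.74 with GFP and 12.78, 12.98, 12.61 and 12.81 with LCN2. Of the LCN2 samples 3 lay above every GFP sample and LCN2 replicate 3 did not, while GFP replicates 1 and 2, those high in lymph node genes, were lowest. The difference was 0.22 ± 0.10 (limma, unadjusted p = 0.0582, adjusted p = 0.372), the highest of the set in this depot. It was 0.093 ± 0.11 (unadjusted p = 0.409) without GFP replicates 1 and 2, when Dnm1l, at 0.095, was higher, and 0.13 ± 0.09 with the lymph node covariate.

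In gonadal fat Pink1 had normalized counts of 7339, 7807, 7457 and 7621 with GFP and 7824, 8325, 5535 and 9696 with LCN2. The GFP samples lay within a narrow range, and the LCN2 samples lay on both sides of it, from replicate 3 at the bottom to replicate 4, the library with muscle transcripts, at the top. The difference was 0.03 ± 0.16 (adjusted p = 0.963 by limma), and -0.07 without LCN2 replicate 4 and GFP replicate 2.

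Bnip3l had gonadal normalized counts of 6021, 7417, 6150 and 5618 with GFP and 5976, 6228, 5305 and 5835 with LCN2. GFP replicate 2 stood above the other 7, LCN2 replicate 3 was lowest, as for Pink1, and the groups overlapped. The difference was -0.11 ± 0.10 (limma, unadjusted p = 0.338, adjusted p = 0.698), and -0.02 without GFP replicate 2. In subcutaneous fat its rlog values were 12.14, 12.37, 12.29 and 12.25 with GFP and 12.23, 12.38, 12.27 and 12.24 with LCN2, a difference of 0.02 ± 0.06. Fundc1 had a difference of -0.07 in gonadal and -0.02 in subcutaneous fat.

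In gonadal fat GFP replicate 4 stood apart from the other control libraries. It was the lowest of the 4 GFP samples in 23 of 30 genes and the lowest of all 8 in 15 of 30, with a median deviation of -0.17 from each gene's mean. It was also lowest in the summed mitochondrial messenger RNAs, 2119175 against 2330088 to 3704515 normalized counts, and highest in the sum of 10 mesothelial genes, 14908 against 3122 to 9142. Without it 21 of 30 differences were below 0, with a median of -0.11. By limma 2 of the 30 (Mfn2, lower, and Pprc1, higher) then had an unadjusted p under 0.05, against 3838 of all 19536 genes tested. None of the 30 was called, and the smallest adjusted p was 0.230. The part of other cells in this library's values was not tested.

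**Figure D4:**
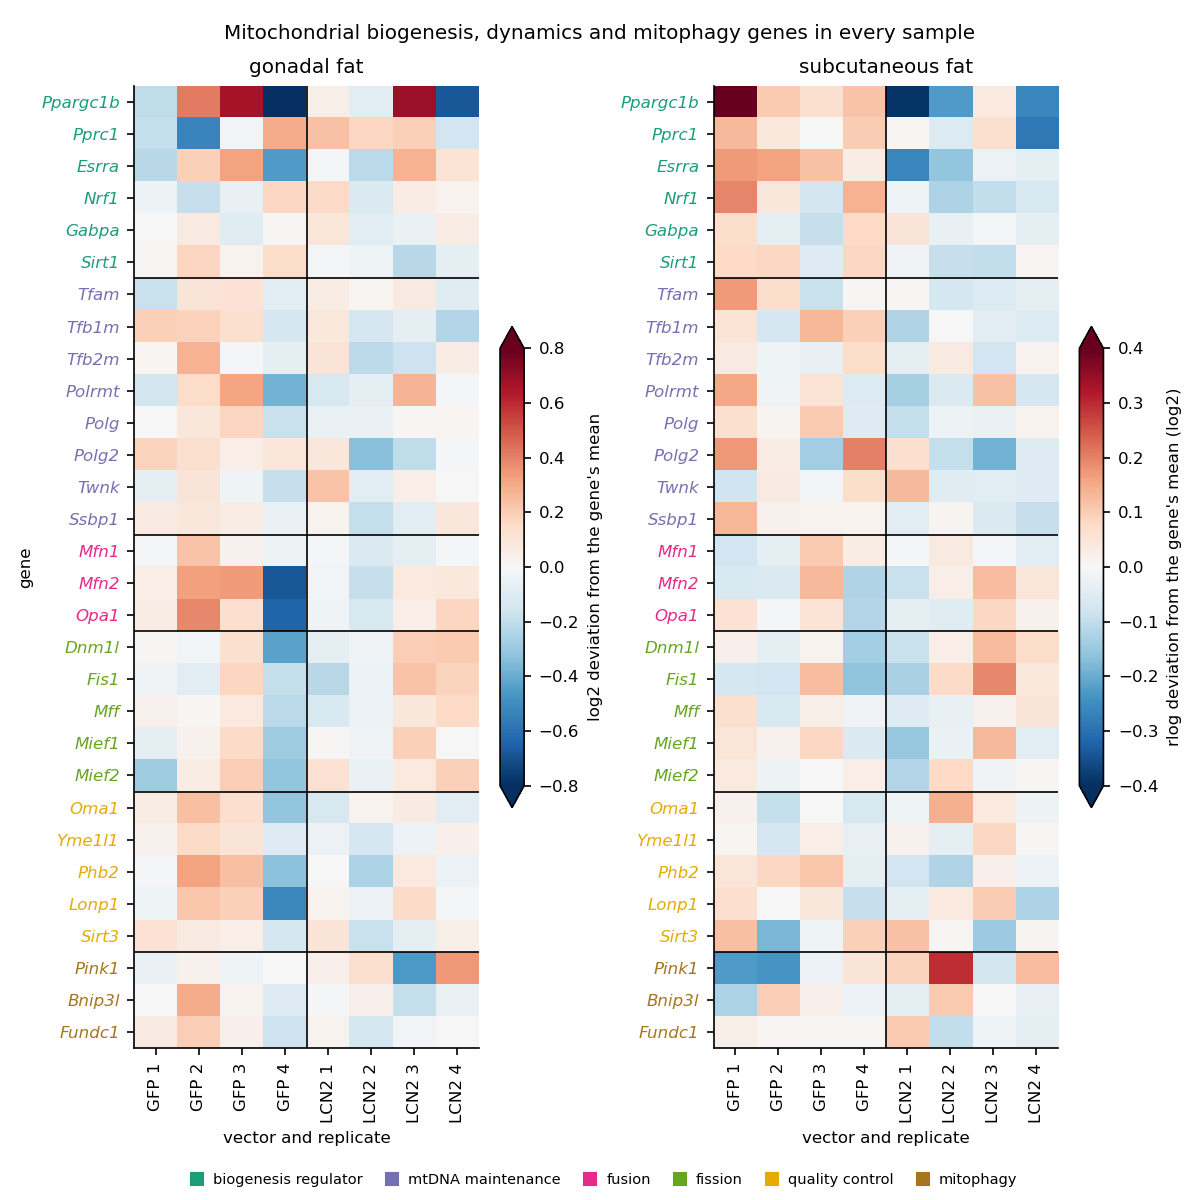
Deviation of each of the 30 genes (rows, grouped by role) from its mean over the 8 samples, in gonadal fat (left, log2 normalized count plus 1) and subcutaneous fat (right, rlog), with a black line between vectors and colour scales that differ between depots. In gonadal fat GFP replicate 4 is the lowest of all 8 samples in 15 of 30 genes, and in subcutaneous fat the top rows, biogenesis and mitochondrial DNA, have a difference below 0 in 14 of 14 genes, or 12 of 14 after centring.

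Other genes of these pathways were followed as 3 lists, none of whose members was called in either depot. Of biogenesis and mitochondrial DNA genes, 22 of 23 were tested in gonadal fat, where 3 were higher and 1 lower at an unadjusted p under 0.05, and 23 in subcutaneous fat, where 0 were higher and 3 lower. Of dynamics and quality control genes, 29 of 30 were tested in gonadal fat, with 0 at that level, and 30 in subcutaneous fat, with 1 higher and 1 lower. Of mitophagy genes, 30 of 30 were tested in both, with 3 higher and 2 lower in gonadal fat and 4 higher and 0 lower in subcutaneous fat. Over all genes 14.8% and 14.0% reached that level in gonadal and subcutaneous fat. The subcutaneous biogenesis and mitochondrial DNA list was even in direction, with 12 of 23 below 0 (median -0.0057), or 11 after centring. The 14 members with these roles were all below 0 there, or 12 after centring. In subcutaneous fat 7 of the 30 mitophagy genes were below 0 (median of the list 0.07), against 50.2% of all genes, and 3 to 10 were over the alternatives. That median was 0.036 without GFP replicate 1, 0.040 without GFP replicates 1 and 2 and 0.035 with the lymph node covariate.

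Esrrg, the gene of ERRγ, a receptor related to ERRα that is abundant in oxidative tissue, had the smallest p of these lists in gonadal fat. Its normalized counts were 5.28, 18.3, 21.2 and 11.6 with GFP and 64.0, 75.6, 90.7 and 81.2 with LCN2. All 4 LCN2 samples lay far above all GFP samples, at a low level. The log2 difference was 2.53 ± 0.38 and did not pass limma (adjusted p = 0.0660), while it passed with DESeq2 on recovered reads (adjusted p = 5.61e-09) and with a pseudocount of 10 (1.91, adjusted p = 0.0328). Over the other alternatives the adjusted p ran from 0.0557 to 0.326. In subcutaneous fat Esrrg had rlog values of 7.28, 7.07, 6.88 and 7.20 with GFP and 6.67, 6.74, 6.56 and 6.99 with LCN2, a difference of -0.37 ± 0.12 (limma, unadjusted p = 0.0126, adjusted p = 0.315). The difference between depots was not tested, since the tables were normalized separately.

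Some marker lists lay mostly or wholly to one side of 0 in gonadal fat. Others were split, with 7 of 14 lymph node genes (median 0.04) and 4 of 9 macrophage genes (median 0.0023) below 0. Of 12 hepatocyte genes 11 were above 0 (median 1.35), with 0 at an unadjusted p under 0.05. The LCN2 samples were unlike each other in these genes. Alb had normalized counts of 11019 and 28487 in LCN2 replicates 1 and 2, and 3198.5 and 1271 in replicates 3 and 4. With GFP it had 1517 to 9989. Adipocyte genes were below 0 in 7 of 8 (median -0.16). Of 8 brown adipocyte genes 7 were above 0 (median 1.18), with sums of 369 to 2779 normalized counts with GFP and 971 to 12124 with LCN2. Only Prdm16 of the 8 had groups without overlap, at 199 to 338 with GFP and 372 to 620 with LCN2. Over all 19536 genes tested, 859 had all LCN2 samples above all GFP samples. In subcutaneous fat Prdm16 overlapped, with rlog values of 8.67 to 9.61 with GFP and 9.32 to 9.58 with LCN2. All 12 skeletal muscle genes tested were above 0 (median 1.78), with sums of 1224 to 3486 with GFP. With LCN2 the sums were 7043, 3812, 2225 and 65359 in replicates 1 to 4, so replicate 4 lay far above the rest. All 10 mesothelial genes were below 0 (median -1.23), 7 of them at an unadjusted p under 0.05. None of these markers was called, and their part in the values of Esrrg or of the 30 genes was not tested. Dna2, a nuclease and helicase of DNA replication, had a gonadal difference of 0.68 ± 0.23 (limma, adjusted p = 0.228). Optn, an autophagy receptor, had 0.36 ± 0.12 with normalized counts of 2946 ± 316 (SD, n = 4) with LCN2 against 2308 ± 321 with GFP (adjusted p = 0.228 by limma), and Gabarapl1, an autophagosome protein, had -0.36 ± 0.15 (adjusted p = 0.302). In subcutaneous fat the named members were Ppara (-0.58 ± 0.13), the nuclear receptor gene of fatty acid oxidation, Clpx (0.14 ± 0.05), a subunit of a matrix protease, Hspe1 (-0.22 ± 0.08), a mitochondrial co-chaperonin, and the autophagy initiators Atg13 (0.17 ± 0.05) and Ulk2 (0.25 ± 0.07). Their adjusted p by limma lay between 0.315 and 0.328.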

How the data were processed

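The members and lists were chosen with earlier results of these data known. A further member is not reported here. The gonadal table the authors deposited holds a signal per gene, counts divided by 1 size factor per sample, from which whole reads were recovered for 100% of values within a tolerance of 1e-06. The subcutaneous table deposited by the authors holds rlog values, on a log2 scale. HISAT2 and DESeq2 were used on GRCm38, per the submitters' processing notes. RNA was from frozen tissue and libraries from a stranded kit, per the labels' protocols. Per sample, 3 reads equal 0.0699 to 0.0853 CPM, which covers counting error only.

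Limma 3.58.1 (R 4.3.3) was fitted per depot on all genes with a mean of at least 10 normalized counts (pseudocount 1, with trend) or a mean rlog of at least 3. Fold changes on these scales understate the change of low genes. P-values were adjusted by Benjamini-Hochberg, with a threshold of 0.05 and ± as SE unless given as SD. EdgeR 4.0.16 and DESeq2 1.42.0 were run on recovered reads as alternatives. Limma was tested on simulated data. Values per sample are given for members with an unadjusted p under 0.05 and for the smallest p of each role, and up to 2 genes per pathway list are named. Labels do not say that samples came from separate mice, so p-values may measure technical spread only.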

Additional observations from a re-analysis of the deposited data

Results flagged for a closer look

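Each of the 30 genes was examined in the 4 groups for a sample far from the other 3, by Dixon's 95% criterion. Of 120 groups 5 were picked out, and chance picks about 1 in 20. In gonadal fat this was Mief1 in LCN2 replicate 3, with a normalized count of 1298 against 1115 to 1144 in the other LCN2 samples. In subcutaneous fat Ppargc1b stood out in GFP replicate 1, with an rlog of 8.87 against 8.37 to 8.42, and so did Ssbp1, with 9.44 against 9.32 in the other 3. Sirt1 was low in GFP replicate 3, with an rlog of 9.68 against 9.81 in the other 3. Twnk was high in LCN2 replicate 1, with an rlog of 9.06 against 8.88 to 8.89.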

How the results depend on the processing

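The counts of 0 called members held under all 19 gonadal and 15 subcutaneous alternatives, with the smallest adjusted p by limma at 0.230 and 0.141. In subcutaneous fat no gene at all was called under any alternative, so 0 called members was fixed there. Gonadal alternatives called from 0 genes (replicate block, and without LCN2 replicate 4 and GFP replicate 2) to 66 (without GFP replicate 4), and DESeq2 called 818. They tested 19536 genes, except for 30325 with no filter on low values and 13883 with a mean of at least 100 normalized counts. Of the 607 values recomputed for 36 results, 583 kept their direction and side of the threshold. Replicate numbers showed no pairing of samples. Same-number correlations ran from -0.36 to 0.42 in gonadal and -0.36 to 0.34 in subcutaneous fat, and different-number ones from -0.46 to 0.50 and -0.44 to 0.44. With so few samples per group these correlations cannot exclude pairing. With the replicate block 0 members were called, with smallest adjusted p-values of 0.448 and 0.283. Differences close to 0 changed sign under some alternatives, and the cause was not tested. Without LCN2 replicate 4 and GFP replicate 2, gonadal Ppargc1b was 0.34, Mfn2 0.051 and Pink1 -0.070. With centred samples, subcutaneous Mfn1 was 0.014 and Mief2 0.0012. Subcutaneous Bnip3l was -0.0059 with lymph node markers as a covariate. With each sample left out in turn, the gonadal differences ran from -0.30 to 0.20 for Ppargc1b, -0.060 to 0.20 for Esrra, -0.25 to 0.087 for Mfn2 and -0.086 to 0.18 for Pink1, and the subcutaneous ones from -0.039 to 0.022 for Mfn1, -0.054 to 0.011 for Mief2 and -0.025 to 0.051 for Bnip3l.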
